A study of Mus musculus with 2 samples.

Results

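The cells described here are the 120 embryoid body (EB) cells in which transcripts of Prdm1, Prdm14, Dnd1 and Tfap2c, 4 genes of early germ cells, were together most abundant. Each of 1878 EB cells was given a score, the mean over these 4 genes of ln(1 + UMIs per 10000 UMIs of the cell), where a UMI (unique molecular identifier) counts 1 captured transcript. The 120 cells with the highest score, called the score cells below, made up 6.39% of the EB cells and held 6.14% of their UMIs. They were compared with the other 1758 EB cells, and the comparison asks whether germ cell genes or genes of the posterior primitive streak, such as T and Cdx2, lead in them.

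The study made 2 single-cell libraries of the C57BL/6 strain, 1 of EB cells and 1 of yolk sac (YS) cells, so neither group has a replicate. EBs are aggregates that embryonic stem cells form when they are left to differentiate. The stem cells had been kept on feeder cells with LIF and moved off the feeders before differentiation, which took place in medium with serum and ascorbic acid. The EBs are labelled as favouring hemangiogenic mesoderm and were taken apart on day 4. The YS library came from mixed E9.5 and E10.5 yolk sacs from which some 70% of red cells, stained for Ter119, had been sorted away, and is the only other sample. In both libraries the cells had been frozen and thawed, and dead cells were sorted out before droplets were made.

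Primordial germ cells, the founders of sperm and eggs, arise in the mouse from a few cells of the posterior epiblast at the time of gastrulation, next to the primitive streak, and later pass through the base of the allantois. BMP signals from the extraembryonic tissues make epiblast cells competent, and T, the founding T-box factor that marks the streak, takes part in switching on Prdm1 and Prdm14. Prdm1 is known to repress the somatic program, Prdm14 to restore pluripotency genes and to counter DNA methylation, and Tfap2c to act downstream of Prdm1. Nanos3, Dppa3 (Stella) and Kit mark the cells once they are set aside, while Ddx4 and Dazl come on after they reach the gonad. Because the same posterior cells use streak genes before they become germ cells or mesoderm, a score over a few genes does not by itself separate the fates.

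The score cells were as deeply sequenced as the rest of the library. They held 6382 to 64541 UMIs, with a median of 25008.5 UMIs and 4431 genes, beside 25643.5 UMIs and 4400 genes in the other EB cells. The mitochondrial share of UMIs had a median of 3.20% in the score cells and 2.81% in the other EB cells. Of the cell barcodes, 2 occurred in both libraries and 1 of these was a score cell. Without these barcodes 223 genes in place of 224 were at least 2-fold higher in the score cells. Scrublet, a doublet caller, marked 3 EB cells, which is 0.16% of them and too few to call it effective, and none was a score cell.

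The 4 score genes chose the cells, so their values describe the choice and are not a finding. Scores ran from 0.385 to 1.32 with a median of 0.559, and the cell just outside the limit scored 0.384. The last 10 cells inside scored 0.385 to 0.398 and held 47 Dnd1, 7 Prdm14, 4 Prdm1 and 6 Tfap2c UMIs. The 10 cells just outside scored 0.352 to 0.384 and held 43 Dnd1, 5 Prdm14, 1 Prdm1 and 10 Tfap2c UMIs. No step in the score separates the 2 sides of the limit.

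Dnd1, an RNA-binding protein that protects germ cell transcripts, carried most of the score. It gave 58.2% of the summed score and was the largest term in 105 of the 120 cells, against 20.03% from Tfap2c, 11.5% from Prdm14 and 10.3% from Prdm1. All 4 genes had a UMI in 28 score cells, 3 in 48, 2 in 35 and 1 in 9. Of the other EB cells 1036 had none and 1 had all 4. The plot of score by rank shows these values.

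**Figure D1:**
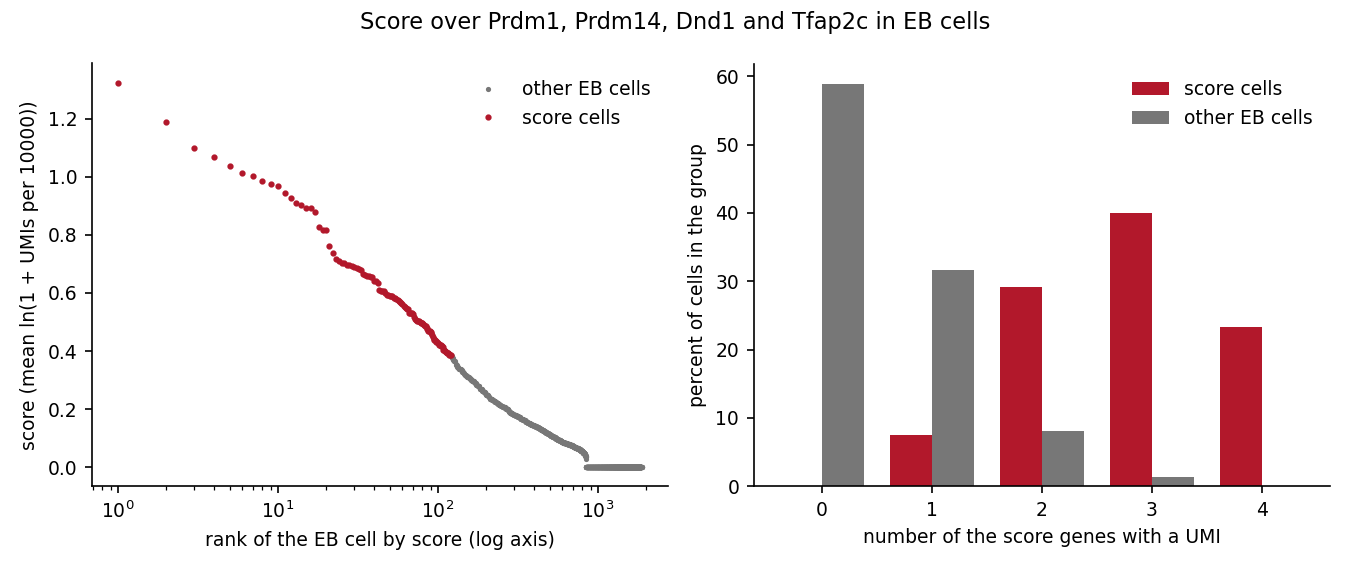
Left, the score of each EB cell (y axis, mean of ln(1 + UMIs per 10000) over the 4 genes) against its rank (x axis, log scale), with the 120 score cells in red. Right, the percent of score cells (red) and other EB cells (grey) with a UMI of 0 to 4 of the score genes. The score falls without a step at rank 120, and 48 score cells had 3 of the genes while 58.9% of the other EB cells had none.

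Prdm1, a zinc finger repressor (chr10:44437177-44528501, minus strand, mm10), ranged from 0 to 3.10 UMIs per 10000 over the score cells, with a median of 0.230. Summed over cells it stood at 29.2 CPM (UMIs per 1000000, 95% interval 23.5 to 35.9) in the score cells and 4.10 CPM in the other EB cells. Prdm14 (chr1:13113457-13127163, minus strand) ranged from 0 to 2.95 UMIs per 10000 with a median of 0.0775, and stood at 38.2 CPM against 2.29 CPM. Intervals throughout are exact and cover counting error only, not the variation between cultures, which 1 library cannot show. Those of CPM and of ratios do not cover variation between cells either. A UMI of both Prdm1 and Prdm14 was present in 33 of 120 score cells (27.5%, 19.7% to 36.4%) and in 13 of 1758 other EB cells (0.740%, 0.394% to 1.26%). Prdm1 was also seen outside the score cells. Among the 120 non-member cells with the highest score over the endoderm genes Sox17, Foxa2, Cer1 and Gsc, 47 had a Prdm1 UMI, at 28.4 CPM (22.1 to 36.0). Prdm14 had 0 UMIs there, which allows a share of up to 2.5% of cells.

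Germ cell genes that the score did not use were present in part of the score cells. Nanos3, an RNA-binding protein needed for germ cell survival, was found in 43 of the 120 cells and Dppa3, a protein that protects DNA methylation marks, in 12. Dppa3 was not particular to the score cells, and stood higher in the set of naive pluripotent cells described below. The interferon-induced membrane proteins Ifitm3 (Fragilis) and Ifitm1, which germ cell precursors are known to carry, and the epithelial ETS factor Elf3 were at least 2-fold higher than in the other EB cells. Genes of the later germ line were not higher as a group.

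In all, 8512 genes reached 5 CPM over all EB cells and were compared. Of these 224 (2.63%) were at least 2-fold higher in the score cells and 348 (4.09%) at least 2-fold lower, and the median log2 ratio was -0.03. The 224 include 3 score genes, and without these 221 of 8509 genes were higher. Of the 17 genes in the early germ cell list 10 reached 5 CPM, and 3 of these were at least 2-fold higher and 0 lower, with a median log2 ratio of 0.73. The higher ones were Ifitm3, Elf3 and Ifitm1, and Ifitm1 was under 2-fold in 3 alternatives (log2 ratio 0.80 for the highest 240 cells, 0.88 without Dnd1 in the score and 0.91 with cells thinned to 6000 UMIs before scoring). The count depended on the filter: at 1 CPM, which lets in the sparse genes, 15 of the 17 were compared and 7 were higher and 0 lower, with a median of 0.86. At that filter 593 of all 11567 genes compared were higher and 803 lower. With thinned cells 2 were higher and 1 lower. No test between the groups is possible with 1 library, and with 10 genes the share of 3 is a description only. The list was chosen with earlier results of these data known, and the 3 genes also occur in cells of other kinds.

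Nanos3 (chr8:84173731-84185217, minus strand) lay under the 5 CPM limit because few cells carry it. Over the score cells it ranged from 0 to 3.67 UMIs per 10000 with a median of 0. It had 82 UMIs in the score cells and 81 in all other EB cells, or 26.3 CPM (20.95 to 32.7) against 1.70 CPM (1.35 to 2.12), a ratio of 15.5 (11.2 to 21.3). The share of cells with a UMI was 35.8% (27.3% to 45.1%) in the score cells, 3.47% in the other EB cells and 2.5% in the 120 cells with the highest score over the blood and vessel genes Tal1, Lmo2, Gata2 and Fli1, which should lack it. The median depth of that hemangiogenic set was 24822.5 UMIs. With every cell thinned to 6000 UMIs these shares were 19.2%, 1.14% and 0.833%. The score cells thus held 50.3% of the Nanos3 UMIs of the EB cells in 6.39% of the cells.

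Dppa3 (chr6:122626410-122630272, plus strand) was concentrated in few cells. It ranged from 0 to 5.79 UMIs per 10000, had 61 UMIs in 12 score cells and 108 UMIs in 31 other cells, and 5 cells held 78.7% of its UMIs in the score cells. Summed, it stood at 19.6 CPM (15.0 to 25.2) against 2.27 CPM (1.86 to 2.74). Its log2 ratio of 3.11 moved between 1.21 and 4.67 over the alternative ways of choosing the cells, so its size rests on which few cells fall inside the limit. Among the next 120 cells by score, 9 cells held 70 Dppa3 UMIs (22.4 CPM).

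Ifitm3 ranged from 0 to 49.8 UMIs per 10000 over the score cells with a median of 7.53, and stood at 975 CPM (941 to 1010) against 269 CPM (265 to 274). It is also common in cells of other kinds, since 92.5% of the hemangiogenic set had a UMI. Ifitm1 was 2.36-fold higher at 1897 CPM against 805 CPM, and was seen in 120 score cells and 98.0% of the others. Elf3 stood at 50.8 CPM (43.2 to 59.3) against 14.4 CPM, with a UMI in 70 score cells. Elf3 was higher still in the endoderm set, at 85.2 CPM.

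Of the other members, Kit, the receptor for stem cell factor, had 23 UMIs or 7.39 CPM (4.68 to 11.1) against 2.35 CPM, and the integrin Itgb3 had 13 UMIs or 4.18 CPM against 0.547 CPM, both under the limit. Nanog, a core pluripotency factor, stood at 77.1 CPM against 48.0 CPM, a log2 ratio of 0.68, Alpl (alkaline phosphatase, the classical germ cell stain) at 0.77 and Cbfa2t2, a Prdm14 partner, at 0.86. Prmt5, an arginine methyltransferase, had a log2 ratio of 0.03 and Sall4 one of -0.33. The X-linked homeobox genes Rhox6 and Rhox9 had log2 ratios of 0.46 and -0.17 and UMIs in 9 and 8 score cells. Cd38, Pecam1 and Tcl1 had 2, 7 and 1 UMIs.

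The later germ cell list gave 1 gene to compare out of 10. Sycp3, a protein of the meiotic chromosome axis, stood at 13.49 CPM against 15.3 CPM. The 10 genes summed to 21.8 CPM in the score cells and 20.5 CPM in the others. Ddx4 had 6 UMIs and Dazl had 1 in the score cells, and 2 of the 10 genes had 0.

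Posterior streak genes were split. Cdx2, a homeobox factor of the posterior embryo and of trophoblast, was 7.34-fold higher in the score cells, and T and the ligand Fgf8 were more than 2-fold higher. Cyp26a1, the enzyme that breaks down retinoic acid, Hoxb1 and the WNT target Sp5 were at least 2-fold lower, but Sp5 was at the edge of that limit and Hoxb1 was under it in 2 alternatives, with a log2 ratio of -0.24 for the highest 240 cells and -0.34 with thinned cells in place of -1.58. Of the 16 listed genes 12 were compared, 3 were higher and 3 lower, and their median log2 ratio was -0.10, close to the -0.03 of all genes.

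Cdx2 (chr5:147300805-147307270, minus strand) had a UMI in 99 of 120 score cells (82.5%) and in 24.1% of the other EB cells. Thinned to 6000 UMIs the shares were 55.8% and 10.9%, with 5.83% in the hemangiogenic set. Over the score cells it ranged from 0 to 12.6 UMIs per 10000 with a median of 1.48, and summed to 197 CPM (181 to 213) against 26.8 CPM (25.3 to 28.3). Cdx2 was the streak gene with the highest ratio of the 12 compared and ranked 6 among all 8509 genes compared outside the score. Over the 15 alternative choices of cells and scaling its log2 ratio stayed between 2.43 and 3.03.

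T (chr17:8434423-8442496, plus strand) was seen in 106 of 120 score cells (88.3%) and in 74.9% of the other EB cells. It ranged from 0 to 13.6 UMIs per 10000 with a median of 3.99, and summed to 445 CPM (422 to 469) against 205 CPM (201 to 209), a ratio of 2.17 (2.05 to 2.29). When Dnd1 was left out of the score the log2 ratio of T was 0.70 in place of 1.12, under the 2-fold limit. Fgf8, a growth factor of the streak, ranged from 0 to 29.3 UMIs per 10000 with a median of 10.1, and summed to 990 CPM against 377 CPM, a ratio of 2.63 (2.53 to 2.73). Nkx1-2, a homeobox gene of axial progenitors, was too sparse to be compared, with 37 UMIs or 11.9 CPM (8.37 to 16.4) against 2.94 CPM.

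Cyp26a1 ranged from 0 to 14.05 UMIs per 10000 with a median of 0, was seen in 43 score cells, and summed to 63.6 CPM (55.1 to 73.1) against 248 CPM (244 to 253), a ratio of 0.256. Hoxb1, the earliest of the streak Hox genes, stood at 6.43 CPM against 19.2 CPM, and Sp5 at 62.3 CPM against 125 CPM. Sp5 was under the limit in 10 of 15 alternatives, with a log2 ratio between -1.68 and -0.45. The rest were closer to the other EB cells. Fgf17 had a log2 ratio of 0.91, the WNT ligands Wnt3, Wnt8a and Wnt5b 0.12, 0.22 and -0.32, and the homeobox factors Evx1 and Cdx1 -0.48 and -0.54. Cdx4 and Wnt3a had 2 and 9 UMIs.

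**Figure D2:**
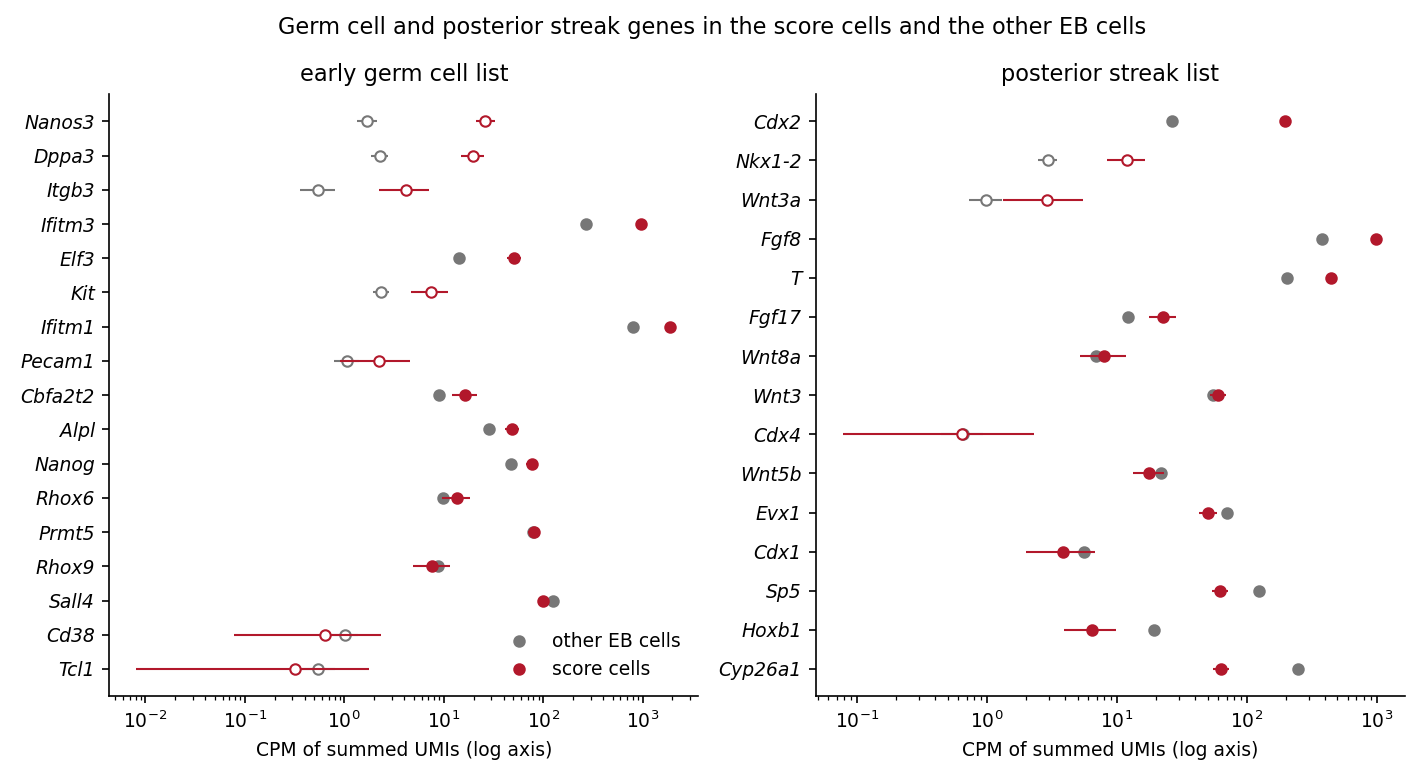
CPM of summed UMIs (x axis, log scale) in the score cells (red) and the other EB cells (grey) for the 17 early germ cell genes (left) and 15 of the posterior streak genes (right), ordered by their ratio. Bars are 95% exact Poisson intervals for counting error, and open circles are genes under 5 CPM over all EB cells. Red lies to the right of grey for most germ cell genes, with Nanos3 at 26.3 against 1.70 CPM, while the streak genes run from Cdx2, 197 against 26.8 CPM, to Cyp26a1, 63.6 against 248 CPM.

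At 5 CPM 10 early germ cell genes and 12 streak genes were ranked among the 8509 genes outside the score. Among the 50 highest ratios were 2 early germ cell genes and 1 streak gene, and among the 200 highest were 3 of each. That ranking leaves out Nanos3, Dppa3, Itgb3, Kit and Nkx1-2, which are sparse and had high ratios. At 1 CPM the germ cell list had 7 higher and 0 lower of 15 and a median of 0.86, and the streak list 5 higher and 4 lower of 15 and a median of 0.12. Of all 11567 genes compared at that filter 593 were higher and 803 lower. Genes of both lists were seen together in part of the score cells. T and Cdx2 were seen together in 94 of 120 score cells (78.3%) and 21.5% of the other EB cells, and Nanos3 or Dppa3 in 46 (38.3%) and 4.72%. A UMI each of Nanos3, T and Cdx2 was found in 34 score cells, which is 34 of the 43 with Nanos3, and in 19 of the other EB cells. That share is close to the 94 of 120 for T and Cdx2 in all score cells. The 43 cells include 9 with Dppa3, most of which lacked a UMI of T or Cdx2, so the share pools unlike cells. A link of T and Cdx2 with Nanos3 was not tested. T stood at 325 CPM in the score cells with Nanos3 and 521 CPM in those without, while Cdx2 was level.

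The start regions of 3 genes named above, 1 germ cell gene and the pair of streak genes the comparison asks about, are shown because these genes were higher together in the score cells. Each runs 5′ to 3′ on the gene's strand from 250 bases before the RefSeq start to 50 after it (GRCm38.p6), with matches to the motifs searched in capitals. The Nanos3 window is chr8:84176503-84176802 and lies inside the longer gene span given above, the Cdx2 window is chr5:147307200-147307499 and the T window is chr17:8434173-8434472.
Nanos3: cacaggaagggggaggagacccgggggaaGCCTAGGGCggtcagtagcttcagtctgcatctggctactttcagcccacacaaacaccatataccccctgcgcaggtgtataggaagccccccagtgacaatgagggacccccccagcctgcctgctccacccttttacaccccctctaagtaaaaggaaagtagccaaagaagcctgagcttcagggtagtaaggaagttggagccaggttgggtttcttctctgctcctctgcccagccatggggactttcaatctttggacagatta
Cdx2: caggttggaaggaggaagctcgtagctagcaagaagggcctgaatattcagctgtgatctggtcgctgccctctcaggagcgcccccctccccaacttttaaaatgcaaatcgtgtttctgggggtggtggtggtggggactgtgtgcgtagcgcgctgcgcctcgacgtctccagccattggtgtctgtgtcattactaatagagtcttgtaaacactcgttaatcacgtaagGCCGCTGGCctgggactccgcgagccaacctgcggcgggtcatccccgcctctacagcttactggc
T: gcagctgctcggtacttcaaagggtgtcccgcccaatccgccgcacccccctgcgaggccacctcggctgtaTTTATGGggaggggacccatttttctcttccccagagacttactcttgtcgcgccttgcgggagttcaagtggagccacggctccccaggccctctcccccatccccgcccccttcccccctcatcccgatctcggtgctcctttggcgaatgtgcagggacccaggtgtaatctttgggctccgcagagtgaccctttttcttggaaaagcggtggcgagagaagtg

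The motifs were searched on both strands as letters only. The TFAP2 motif (GCCNNNGGC) matched once in the Nanos3 window, at position -221 from the start, and once in the Cdx2 window, at -16, and 16.6% of all 32851 promoter windows hold it. The CDX motif (TTTATNG) matched once in the T window, at -178, and is in 10.9% of all windows. The T-box motif (AGGTGTGA) was in none of the 3 windows and is in 1.28% of all. No motif matches overlapped in the windows shown, and a match describes letters, not binding.

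Among genes that reached 5 CPM the highest ratios belonged to genes of neither list. Lefty1, a secreted inhibitor of Nodal, was 15.97-fold higher, Sprr2a3, a small proline-rich protein of epithelial barriers, 15.9-fold, and Ccno, an atypical cyclin, 10.3-fold. Below Cdx2 lay the pluripotency-linked Klf2 (6.51-fold), the glutathione transferase Gstm1 (5.08-fold) and Sox2 (4.61-fold), the partner of Pou5f1 in pluripotency. The immunoproteasome subunit Psmb8, the chromatin protein Utf1, Ifitm3, the receptor-like Pdgfrl, the RNA helicase Mov10, Elf3 and the thioesterase Acot1 were 3.45- to 3.69-fold higher. These genes are among the 15 highest ratios of genes that reached 50 CPM and 30 UMIs in the score cells.

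Lefty1 ranged from 0 to 32.1 UMIs per 10000 over the score cells with a median of 0.893, was seen in 79 of them (65.8%) against 17.7% of the others, and summed to 458 CPM (435 to 483) against 28.7 CPM (27.2 to 30.2). The score cells held 51.1% of all its UMIs in EB cells, and 5 cells held 27.9% of those. Sprr2a3 ranged from 0 to 30.7 with a median of 0.936, was seen in 77 score cells (64.2%) against 9.27%, and summed to 276 CPM (258 to 295) against 17.4 CPM. It belongs to a family of near-identical genes, so how its reads were assigned is uncertain. Ccno was seen in 43 score cells (35.8%) against 7.11% and summed to 51.7 CPM (44.0 to 60.4) against 5.02 CPM (4.41 to 5.70).

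The 15 lowest ratios, among genes that reached 50 CPM in the other EB cells, included 3 genes of the nascent mesoderm list (Kdr, Eomes and Snai1), 2 of the primed epiblast list (Pim2 and Dnmt3b), 1 hemangiogenic gene and 1 streak gene. Etv2, the ETS factor that starts the blood and vessel lineage, stood at 17.99 CPM (13.6 to 23.4) in the score cells and 118 CPM in the others, a ratio of 0.152. Kdr, the VEGF receptor of that lineage, stood at 17.4 CPM against 69.0 CPM, and Eomes, a T-box factor of early mesoderm and endoderm, at 38.6 CPM against 151 CPM. The WNT inhibitor Dkk1 (0.163), Grrp1 (0.167), the carbonic anhydrase Car4 (0.179), the growth factor Fgf3 (0.208) and the IGF-binding protein Igfbp4 (0.244) had ratios of up to 0.244. Cyp26a1, the uridine phosphorylase Upp1, the EMT factor Snai1, Pmp22, the kinase Pim2, the gap junction protein Gja1 and Dnmt3b had ratios of 0.256 to 0.315.

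Dnmt3b, the main enzyme that adds new DNA methylation in the epiblast, was seen in 58 score cells (48.3%) and 83.05% of the others. It ranged from 0 to 6.24 UMIs per 10000 with a median of 0, and summed to 51.1 CPM (43.5 to 59.7) against 162 CPM (159 to 166). Its log2 ratio of -1.67 was under 2-fold in 3 alternatives, at -0.22 without Dnd1 in the score, -0.59 for the highest 240 cells and -0.78 with thinned cells. The other members of the DNA methylation list moved less. Of 8 compared only Dnmt3b passed 2-fold, the maintenance factor Uhrf1 had a log2 ratio of -0.71 and the demethylating enzyme Tet1 one of 0.43.

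The naive pluripotency list, genes of the earliest embryonic stem cell state, had the highest median of the lists outside the score genes, a log2 ratio of 1.35 over 7 genes, with 5 higher and 2 lower. Klf2, the threonine dehydrogenase Tdh, Klf5, Dppa5a and Zfp42 (Rex1) were 6.51-, 3.58-, 2.93-, 2.55- and 2.48-fold higher, and Fgf4 and the T-box factor Tbx3 were lower, at 0.350 and 0.253. Of the core pluripotency list 9 were compared, with Sox2, Utf1 and Dppa4 higher and the Nodal co-receptor Tdgf1 lower, at 243 CPM against 679 CPM. Pou5f1 (Oct4), the factor shared by germ cells and pluripotent cells, was seen in 120 of 120 score cells at 939 CPM against 568 CPM, under 2-fold. The primed epiblast list, genes of the later epiblast, had 0 higher and 4 lower of 9 compared, and a median of -0.96. Sox3 stood apart in that list. It lay just under the 5 CPM limit, with 124 UMIs in 50 score cells (39.8 CPM) and 128 UMIs in all other EB cells (2.69 CPM), and it was chosen for naming after its values were seen, as were the set values of Zfp42, Esrrb, Pou5f1, Mesp1 and Dppa5a given here.

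Lists of other lineages were low. Nascent mesoderm genes had 9 lower and 1 higher (Lefty2, a Nodal inhibitor, 3.12-fold) of 11 compared, with a median of -1.44. All 5 hemangiogenic genes compared were lower, with Tal1 at 4 UMIs or 1.28 CPM against 12.4 CPM, and the 12 listed genes summed to 55.3 CPM against 214 CPM. In the list for allantois and extraembryonic mesoderm 4 of 7 were lower (median -1.74), among them Foxf1 at 2.25 CPM against 17.6 CPM. The definitive endoderm list had 4 of 7 lower and 1, Epcam, a surface protein of epithelial and pluripotent cells, higher. Cer1 had 3 UMIs, and Sox17 stood at 17.7 CPM against 24.9 CPM. The visceral endoderm genes Gata4 and Gata6 had ratios of 0.174 and 0.156, and 5 of the 10 genes of that list had 0 UMIs in the score cells.

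**Figure D3:**
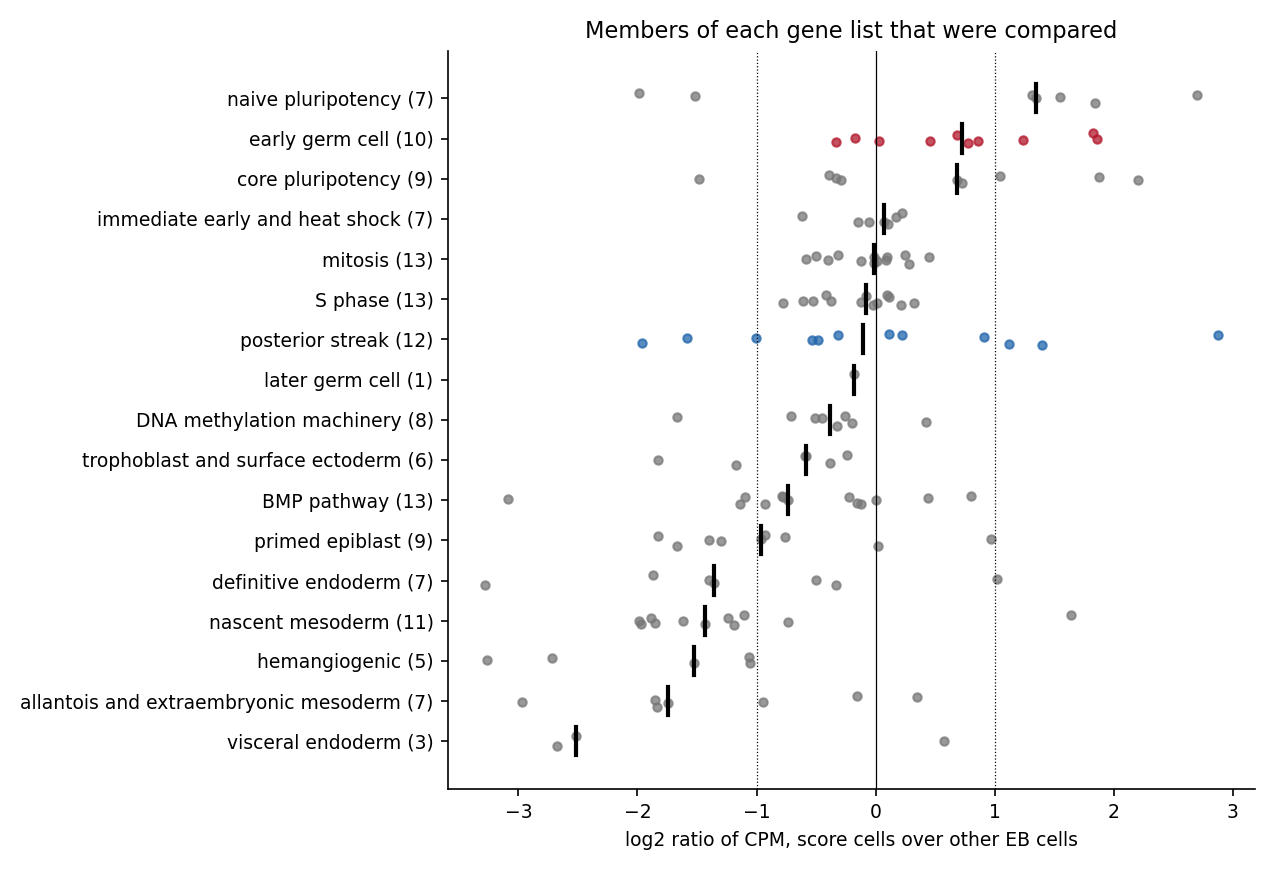
The log2 ratio of CPM in the score cells over the other EB cells (x axis) for each compared member of each list (points, number compared in brackets), with the median as a black bar and dotted lines at 2-fold. The early germ cell list (red) has a median of 0.73, the posterior streak list (blue) spreads from -1.96 to 2.88 around -0.10, and the mesoderm, hemangiogenic and endoderm lists lie mostly to the left of 0.

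The score cells were not uniform. They were divided by whether a Prdm1 or Prdm14 UMI was found: 33 cells had both, 31 only Prdm1, 27 only Prdm14 and 29 neither, with median depths of 27568, 24097, 22122 and 25918 UMIs. A gene can be missed at this depth, so these are groups of detection. Both genes belong to the score, so the division uses values that chose the cells. Ccno and Sprr2a3 were highest where both were found. Ccno stood at 104 CPM (84.8 to 127) there and at 37.6, 20.8 and 25.2 CPM in the other groups, and Sprr2a3 at 408 CPM (369 to 450) against 267, 235 and 151 CPM. Cdx2 was 240 and 220 CPM in the groups with Prdm1 and 159 and 151 CPM in those without. T stood at 515, 460, 444 and 341 CPM. Mesp1, a factor of nascent mesoderm chosen after its values were seen, was highest in the cells with only Prdm14. It stood at 269 (237 to 304), 75.2, 506 (454 to 563) and 61.1 CPM in the same order of groups. Nanos3 stood at 37.1 CPM (26.0 to 51.4), 25.1, 17.9 and 21.3 CPM, with intervals that overlap. The naive pluripotency genes Klf2, Tdh, Dppa5a and Zfp42 were highest in the cells with neither Prdm gene. Zfp42 stood at 82.4 CPM and Tdh at 99.6 CPM there, against 10.3 and 4.12 CPM in the cells with both. Klf5 was nearly level, at 60.8, 47.3, 53.6 and 54.5 CPM.

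Among the score cells Dppa3 was found only in those without a Prdm14 UMI. Prdm14 is a score gene, so how the cells were chosen can shape this split, which was not tested. None of the 60 score cells with Prdm14 had Dppa3, which allows a share of up to 5.0%, while 12 of the 60 without it did (95% interval 10.8% to 32.3% of cells), and both groups had a similar median depth, 25168.5 and 24919 UMIs. Of these 12 cells 5 had Prdm1, 9 had Nanos3 and 12 had Utf1. The Dppa3 cells also carried naive pluripotency genes. Zfp42 stood at 196 CPM (152 to 249.3) in them and 17.3 CPM (12.8 to 22.9) in the other 108 score cells, Klf2 at 389 CPM against 70.3 CPM, Utf1 at 520 CPM against 56.6 CPM, and Esrrb at 23.8 CPM against 1.44 CPM.

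Streak and epiblast genes ran the other way in the Dppa3 cells. T was seen in 5 of the 12 and stood at 113 CPM (79.9 to 155) against 485 CPM (460 to 512), and Sox3 was seen in 1 of the 12, at 8.91 CPM against 43.6 CPM. Cdx2 stood at 131 CPM (94.9 to 175) against 205 CPM (188 to 222). The 12 cells thus held 66 of the 114 Zfp42 UMIs and 175 of the 332 Utf1 UMIs of all score cells. Without them Zfp42 was close to its level in the other EB cells, 14.8 CPM, while Klf2 and Utf1 were still above theirs, 16.1 and 29.1 CPM. Cells with Nanos3 differed in the same direction, but 9 of them also had Dppa3, so this is not a separate result. Those 9 cells held most of the Utf1 and Klf2 UMIs of the cells with Nanos3. Utf1 stood at 179 CPM (156 to 205) in the 43 cells with Nanos3 and 60.5 CPM (49.9 to 72.6) in the 77 without, Klf2 at 167 and 65.2 CPM, and T at 325 CPM (294 to 359) and 521 CPM (489 to 555). Cdx2 was level, at 196 and 197 CPM.

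**Figure D4:**
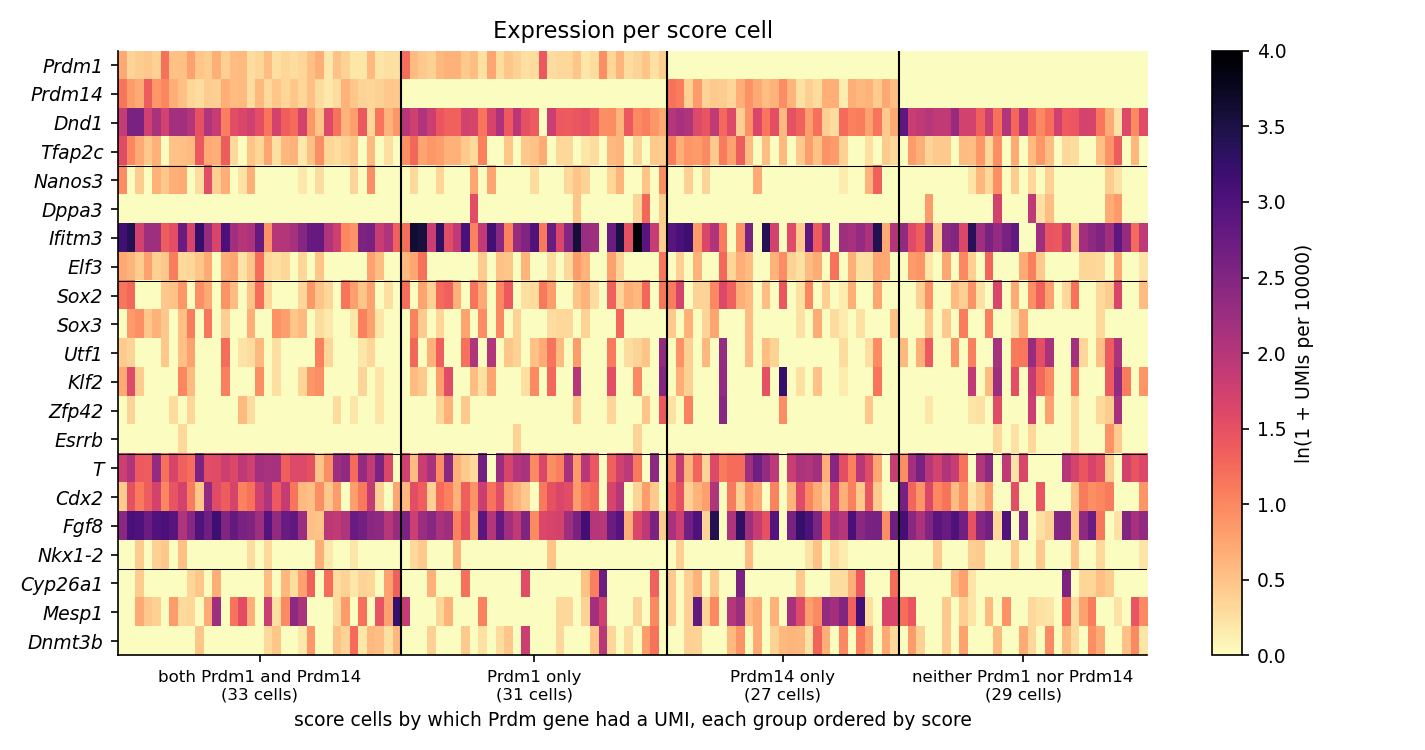
Each column is 1 score cell and each row a gene, with the shade giving ln(1 + UMIs per 10000), grouped by which Prdm gene had a UMI and ordered by score within a group. Dppa3 shows in 12 cells, all in the groups without Prdm14, while T, Cdx2 and Fgf8 run through all 4 groups.

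Levels of several genes changed along the score. The cells were ordered into ranks 1 to 40, 41 to 80 and 81 to 120, then the next 120 cells, the cells with a lower score above 0, and the 1036 cells with a score of 0. Cdx2 stood at 289 (256 to 326), 176, 139, 75.04, 27.4 and 20.5 CPM, and Lefty1 at 614, 410, 373, 114, 24.7 and 21.2 CPM. Sox3 went from 58.3 CPM to 1.78 CPM over the same 6 sets and Nanos3 from 34.97 CPM to 0.775 CPM. T had no such order inside the score cells, at 433 (392 to 478), 492 (450 to 537) and 412 (376 to 451) CPM, and lay at 161 CPM in the cells of score 0. Dppa3 had 0 UMIs in the 40 highest cells, which allows a share of up to 7.5% of cells.

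In the other direction Eomes stood at 10.6 CPM (5.08 to 19.5) in ranks 1 to 40 and 155 CPM (150 to 160) in the cells of score 0, and Cyp26a1 at 30.7 CPM and 273 CPM. Dnmt3b stood at 14.8 (8.11 to 24.9), 55.8, 76.7, 165, 196 and 138 CPM, so its highest value lay in the cells with a low score above 0. Tdgf1 stood at 179, 211 and 323 CPM in the score cells and 666 CPM at score 0. The limit of 120 cells cuts through these gradients, and the plot of levels by rank shows no break at it.

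**Figure D5:**
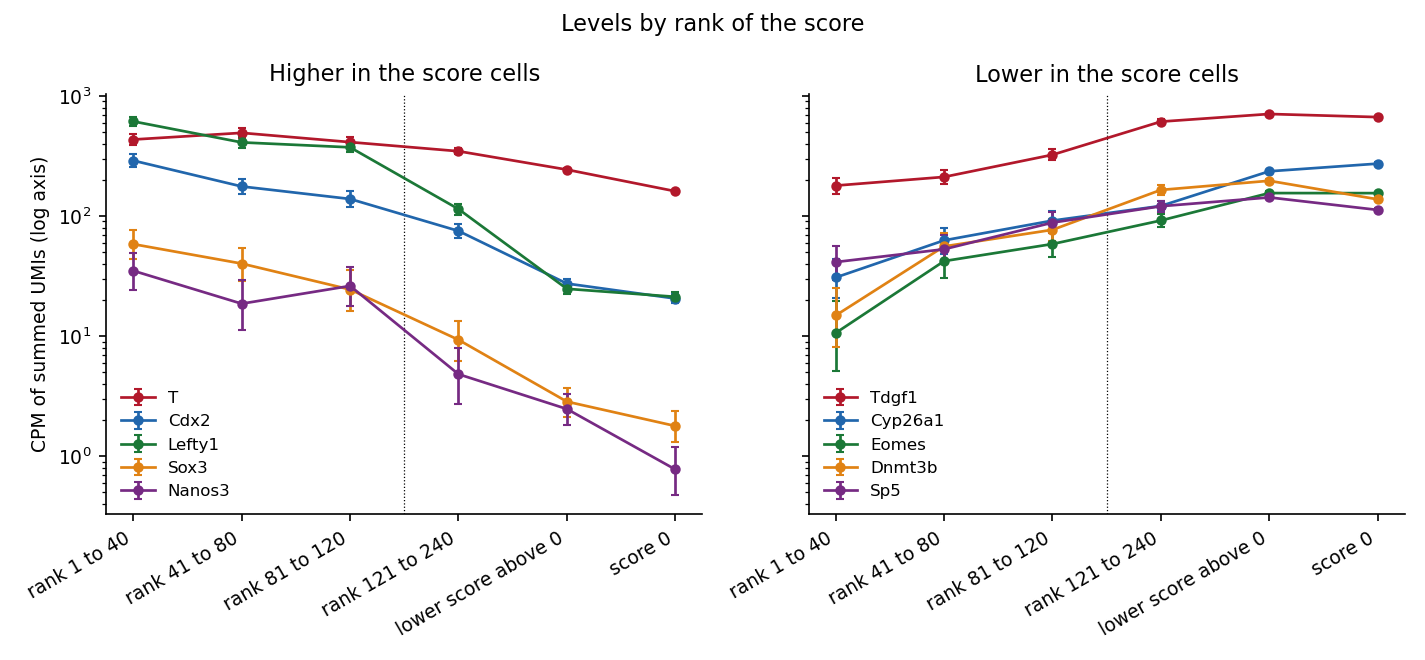
CPM of summed UMIs (y axis, log scale) in 6 sets of EB cells ordered by score (x axis), with 95% exact Poisson intervals, for 5 genes higher (left) and 5 lower (right) in the score cells. The dotted line marks the limit of the score cells. Cdx2 runs from 289 to 20.5 CPM and Eomes from 10.6 to 155 CPM.

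The score cells were also set beside other sets of EB cells. The posterior streak set was the 120 non-member cells with the highest score over T, Cdx1, Cdx2 and Wnt3a. When that streak score was ranked over all EB cells, 46 of its 120 highest were score cells, against 15 for the naive pluripotency score, 1 for the hemangiogenic and 0 for the endoderm score. These overlaps count cells for a few chosen scores and do not measure similarity. The streak set leaves out the score cells, so it holds only cells with a lower germ cell score. T stood at 659 CPM (631 to 688) in the streak set, above the score cells, and Cdx2 at 155 CPM (142 to 170), below them. T and Cdx2 chose that set, so these values describe it. Genes outside that choice differed more. Mesp1, a factor of nascent mesoderm, stood at 566 CPM (540 to 593) in the streak set and 225 CPM in the score cells, Hoxb1 at 49.4 CPM against 6.43 CPM and Cyp26a1 at 158 CPM against 63.6 CPM. Nanos3 stood at 4.23 CPM (2.25 to 7.23) and Lefty1 at 65.0 CPM in the streak set, and Sox2 at 23.1 CPM, all below the score cells. Fgf8 was close, at 870 CPM against 990 CPM.

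The naive pluripotent set, the 120 non-member cells with the highest score over Zfp42, Esrrb, Tfcp2l1 and Klf4, shared Sox2 (97.1 CPM against 87.7 CPM) with the score cells and held more Dppa3, 31.5 CPM (25.2 to 38.9) in 16 cells. Utf1 and Klf2 both stood at 194 CPM there, above the 107 and 105 CPM of the score cells. It had less Nanos3, 10.9 CPM (7.33 to 15.5) in 17 cells, Cdx2, 29.7 CPM, T, 162 CPM, and Lefty1, 90.9 CPM. Sox3 stood at 2.90 CPM in that set and 11.4 CPM in the streak set.

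The yolk sac held no such cells by this score. Of 775 YS cells, with a median of 28461 UMIs, 67 scored above 0, the highest scored 0.309, and 0 reached the lowest score of the score cells, which allows a share of up to 0.387%. Over all YS cells Prdm14 had 1 UMI, Tfap2c 4, Dnd1 37 and Prdm1 44, and Dppa3 had 0. T had 11 UMIs (0.455 CPM), Cdx2 19 and Nanos3 11. The libraries differ in tissue, stage and sorting, which cannot be told apart.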

How the data were processed

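Droplet libraries (10x Chromium, HiSeq2500) were made from EB and YS cells, 1 of each. The authors deposited raw UMI counts of 33456 genes in 737280 barcodes per library, with 73915225 UMIs for EB and 30294678 for YS. The genome build was mm10, per the submitters' processing notes, and names for the aligner, counter and annotation were not given in the sources used here.

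Barcodes with at least 6172 UMIs (EB) or 6537 UMIs (YS) (10% of the value at the 99th percentile among the 3000 barcodes with most UMIs) and at most 10% mitochondrial UMIs were kept. In the EB library 2020 barcodes passed the first limit and 142 of them failed the second. The 120 cells, the score and the gene lists were chosen with earlier results of these data known. Summed UMIs of each set of cells were expressed as CPM, and genes with at least 5 CPM over all EB cells were compared by their ratio, with 2-fold as the limit. With 1 library a group no test was made. Intervals (95%) are exact Poisson, Clopper-Pearson and conditional binomial, and a count of 0 allows up to 3 counts. Ratio intervals were checked on simulated Poisson counts, the model they assume, so the check does not cover variation between cells.

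Named genes were the score genes, members of the early germ cell and streak lists, the 15 highest and 15 lowest ratios among genes that reached 50 CPM and 30 UMIs where they were higher (unnamed models and mitochondrial genes excepted), and of each other list the 3 highest and 2 lowest. Foxa2 and the genes named as such in the results were chosen after their values were seen. A few genes that the rule names are not reported here. Doublets were not removed, since Scrublet marked too few cells. Alternatives changed the number of cells, both barcode limits, the score genes and scale, depth, doublets, summary, scaling and the CPM filter. The removal of barcodes shared by both libraries was chosen after seeing the data. Gene positions are those of GENCODE M21, which holds 32655 of the gene identifiers, and promoters are RefSeq's. Tools were Python 3.11.15, numpy 2.4.6, scipy 1.17.1, pandas 2.3.3, scanpy 1.11.5 and matplotlib 3.10.9.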

Additional observations from a re-analysis of the deposited data

Results flagged for a closer look

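Some barcodes that the mitochondrial limit removed also reached the score of the score cells. Of 142 EB barcodes over that limit, with a median of 7195 UMIs, 45 scored above 0 and 6 reached the lowest score of the score cells, the highest at 0.488. These 6 barcodes held 11 Dnd1, 4 Tfap2c, 2 Prdm14 and 0 Prdm1 UMIs. T stood at 555 CPM (369 to 802), Cdx2 at 159 CPM (68.4 to 312) and Fgf8 at 1149 CPM in them. Nanos3, Dppa3 and Sox2 had 0 UMIs each, with an interval of up to 73.1 CPM, and Sox3 had 1 UMI. They were flagged because they carry the signal outside the cells compared, and whether damaged cells account for them was not tested.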

How the results depend on the processing

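The streak list median, -0.10, changed sign under some alternatives (-0.37 to 0.26), as did the log2 ratios of 10 named germ cell and streak genes under 2-fold: Prmt5 (-0.07 to 0.06), Wnt3 (-0.10 to 0.18), Wnt5b (-0.37 to 0.13), Wnt8a (-1.04 to 0.77), Cdx1 (-1.02 to 0.42), Cdx4 (-1.09 to 0.77), Cd38 (-1.71 to 0.52), Tcl1 (-0.996 to 3.07), Rhox6 (-0.98 to 5.08) and Rhox9 (-2.10 to 5.22). The count of 224 higher genes became 593 with a filter at 1 CPM and 67 at 20 CPM. The count of 348 lower genes became 803 and 99 under those filters, 555 for the highest 60 cells, 164 for the highest 240 and 218 without Dnd1 in the score. The germ cell median of 0.73 became 0.97 with a mitochondrial limit of 5%, 0.98 without Prdm1 in the score and 0.98 where at least 2 of the 4 genes had to be seen. The share with both Prdm1 and Prdm14 was 43.3% in the highest 60 cells and 16.7% in the highest 240. Of 43 named genes past 2-fold, 33 stayed past it in the same direction under all 15 alternatives run on them, and all 645 values of these 43 genes kept their direction. Among those that did not were T, Ifitm1, Pecam1, Wnt3a, Sp5, Hoxb1, Pim2, Gja1 and Dnmt3b. The choice of cells itself moved most without Dnd1 (72 of 120 cells shared) and with thinned cells (83 shared). The cause of these changes was not tested. No paired analysis was possible because each group has 1 library. Depth limits single-cell absence: a gene without a UMI in a cell may still be expressed there, and most doublets may remain.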

Other observations

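BMP pathway and trophoblast genes were mostly level or lower in the score cells, and cell cycle and stress genes were close to their level in the other EB cells. Of 13 BMP pathway genes compared 0 were higher and 3 were lower by 2-fold, with a median log2 ratio of -0.74. The ligand Bmp2 had 4 UMIs in the score cells (ratio 0.117), the pseudoreceptor Bambi stood at 45.6 CPM against 101 CPM, and Smad1 was the other lower gene. Bmp4, the ligand that starts germ cell specification, stood at 55.3 CPM against 61.6 CPM. Msx1, a BMP target of the posterior embryo, stood at 157 CPM against 123 CPM.

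Of the 6 trophoblast and surface ectoderm genes compared Gata3 (11.2 CPM against 25.4 CPM) and Wnt6 were lower by 2-fold and 0 were higher, although Cdx2, which trophoblast also uses, was 7.34-fold higher. None of 13 S phase genes and none of 13 mitosis genes passed 2-fold, with median log2 ratios of -0.08 and -0.01. The 7 immediate early and heat shock genes compared, which respond to handling of cells, had a median of 0.07 with 0 past 2-fold.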
